A study of Cucumis sativus with 9 samples.

Results

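Ribosomal protein genes of the cucumber leaf were examined at 42 °C. They were taken as every gene whose deposited protein-domain description contained "Ribosomal protein L" or "Ribosomal protein S", with the ubiquitin fusions left out, and the search found 221 of the 24880 genes in the tables. Of these, 119 had a large-subunit description, 91 a small-subunit description and 11 a description that names proteins of both subunits. The 11 mixed genes were 10 of the L7Ae/L30e/S12e/Gadd45 family and 1 model carrying S3 and L16 domains together. The 2 genes that join ubiquitin to ribosomal protein S27a were excluded by this definition. No measured value was used to choose the genes.

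Seedlings of the inbred cucumber 'Chinese long' 9930 were 3 weeks old, had been grown at 25 °C by day and 18 °C by night with 16 h of light and 8 h of darkness, and were moved to 42 °C. Leaves were taken before the heat (HT0h) and at 3 h (HT3h) or 6 h (HT6h) of it. Each group had 3 RNA sequencing libraries, described by the study as biological replicates, and all groups shared the same genotype. HT3h and HT6h shared the treatment at 42 °C, which HT0h had not received. The study left HT3h replicate 2 and HT6h replicate 2 out for lack of uniformity, so the tests here used the other 7 libraries, and the counts by group are also given with all 9. No unheated leaves were collected at the later times, so heat and the hour of sampling cannot be told apart.

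A ribosome is built from a large subunit, which forms peptide bonds, and a small subunit, which reads the mRNA, and most of its proteins are present in a single copy. A plant cell holds separate ribosomes in the cytosol, the chloroplasts and the mitochondria. The cytosolic set and many organelle proteins are encoded in the nucleus, usually by several gene copies for each protein, and making these proteins is one of the large costs of a growing leaf. Cells under stress are known to adjust the production of ribosomes, and the TOR kinase pathway is one of the routes by which they do so.

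The protein families were sorted by the ribosomes in which they are known. Families known only from cytosolic or archaeal ribosomes were called eukaryotic type (69 genes), those known only from bacterial and organelle ribosomes bacterial type (27 genes), and those found in both shared type (122 genes). The remaining 3 genes carried a domain of the enzyme that methylates L11, which is no ribosomal protein although its description contains the name. In all, 69 families were represented. On the 7 chromosomes there were 28, 24, 49, 22, 38, 31 and 17 of the genes in order, and 12 lay on unplaced scaffolds. Among those 12, 7 lay on 1 scaffold of 312 genes, of which 27 had descriptions of photosystem, cytochrome, ATP synthase, NADH or polymerase subunits.

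Values were the deposited FPKM, fragments scaled to gene length and library size, so levels can be compared between genes on a per-length scale. The libraries held 18972139 to 22942239 fragments on genes. A gene was tested where its mean FPKM was at least 0.1, which 210 of the 221 genes passed in the 7 libraries and 211 in the 9. Of the 11 that did not pass, 6 had no fragment in any of the 9 libraries. Differences are log2 fold changes of FPKM + 0.1, given ± SE, and a gene was called where its limma adjusted p was 0.05 or less and the change was at least 2-fold. Among the markers, all 20 chlorophyll a/b binding genes and the Rubisco small-chain gene were detected in every group. The chlorophyll a/b binding genes summed to 57580 to 64751 FPKM in HT0h, 22769 to 66871 in HT3h and 10556 to 24189 in HT6h, with 1 and 9 of the 20 called lower. Small heat shock protein genes (Hsp20 family) were called higher in 19 of 27 tested at 3 h and in 15 of 27 at 6 h. Core histone genes, which mark dividing cells, summed to 8337 to 9033 FPKM in HT0h, 1725 to 1901 in HT3h and 1673 to 1716 in HT6h, and 15 and 16 of the 23 tested were called lower, while 4, 4 and 3 of all 27 were at 0 in the groups. Cyclin genes summed to 885 to 935, 479 to 653 and 511 to 560 FPKM, with 7 and 9 of 31 called lower. In bulk leaves, fewer cells of a kind and less RNA per cell cannot be told apart, and the part of the chlorophyll, histone and cyclin changes in the ribosomal protein result was not tested.

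Ribosomal protein genes were among the most abundant transcripts of the unheated leaf. By mean FPKM in HT0h, 17 of them stood among the top 100 genes and 130 among the top 1000, and their median rank was 564. They took 6.94, 5.46 and 6.19% of all fragments in the 3 HT0h libraries. The shares were 3.74, 2.53 and 5.90% in HT3h and 4.22, 2.55 and 4.97% in HT6h (replicates 1, 2 and 3). Every HT6h library was therefore below every HT0h library, whereas HT3h replicate 3 lay within the HT0h range. Replicate 2 of each heated group, the pair left out of the tests, had the lowest shares. Large-subunit genes held 3.07 to 3.82% of fragments in HT0h, 1.42 to 3.14% in HT3h and 1.44 to 2.65% in HT6h, and small-subunit genes held 2.06 to 2.67%, 0.917 to 2.26% and 0.904 to 1.89%.

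**Figure D1:**
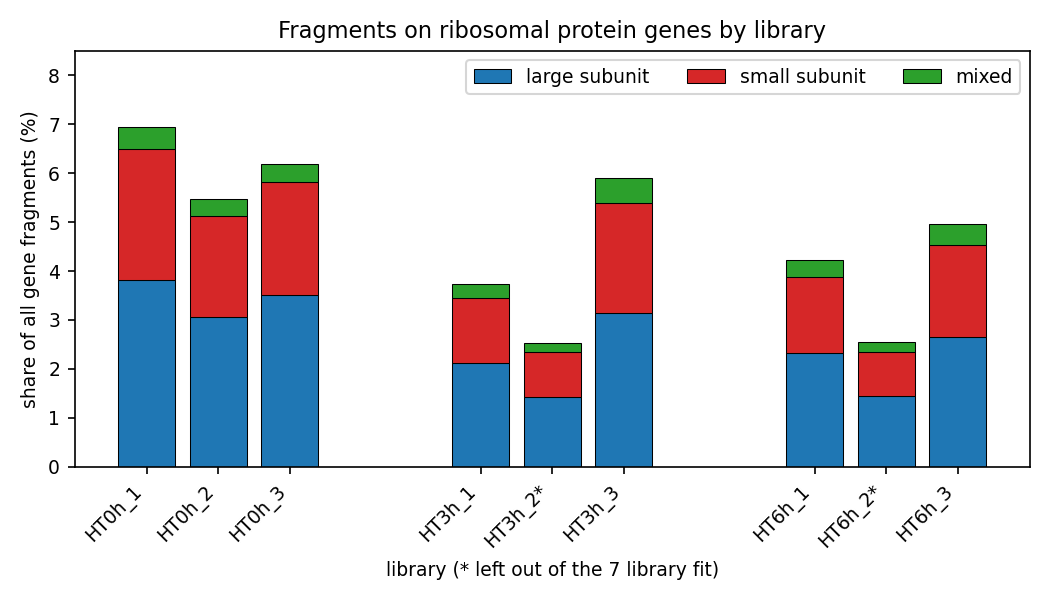
Share of all gene fragments (%) that fell on ribosomal protein genes in each of the 9 libraries, stacked by large-subunit, small-subunit and mixed genes. The 3 HT6h bars, at 4.22, 2.55 and 4.97%, lie below the lowest HT0h bar at 5.46%, and the HT3h bars range from 2.53 to 5.90%.

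Most of the genes were lower in heated leaves, and few were higher. At 3 h, 35 of the 210 tested genes were called lower and 2 higher, and at 6 h 54 were called lower and 3 higher. Over all genes tested, 8.29% were called lower and 10% higher at 3 h, and 10% lower and 12.2% higher at 6 h. The ribosomal protein genes called lower thus made up 16.7% and 25.7% of those tested, and the genes called higher 0.952% and 1.43%. With no requirement of a 2-fold change, 61 and 86 of the 210 genes passed the adjusted p on the lower side, beside 15.4% and 18.2% of all genes. Point estimates were below 0 for 174 genes at 3 h and 179 at 6 h, compared with 50.8% and 50.1% of all genes. Both times were measured against the same HT0h libraries, and 32 genes were called lower at both. No gene was called in opposite directions at the 2 times.

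With all 9 libraries more genes were called lower, 55 of 211 at 3 h and 72 at 6 h, while 2 were called higher at each time. The backgrounds there were 9.57% lower and 10.9% higher at 3 h and 10.1% lower and 12.3% higher at 6 h. Single libraries moved the counts. Leaving out HT0h replicate 1, HT0h replicate 3 or HT3h replicate 1 gave 15, 20 and 18 genes lower at 3 h, or 7.14, 9.52 and 8.57% of the ribosomal protein genes, beside 6.30, 6.41 and 7.64% of all genes in the same fits. The excess over all genes at 3 h was thus small without any 1 of these libraries, whereas without HT3h replicate 3 there were 63 genes called lower, 30% beside 9.81% of all genes. At 6 h, leaving out HT0h replicate 1 or HT0h replicate 3 gave 34 genes each (16.2%, beside 8.27 and 8.30% of all genes). Without HT6h replicate 1 there were 21 (10%, beside 7.97%), and without HT6h replicate 3 there were 28 (13.3%, beside 8.24%). In all 9 libraries without any test, 104 of 211 genes (49.3%) had every heated library below every HT0h library, against 20% of all genes, and 5 had every heated library above, against 20.4% of all genes. Between 3 h and 6 h no ribosomal protein gene was called. Point estimates were lower at 6 h than at 3 h for 160 of the 210 genes (76.2%), compared with 51.6% of all genes, and the median difference was -0.12. By limma on FPKM or on fragments (voom) 0 of the 210 genes were called, 4 had an unadjusted p under 0.05 and the smallest limma adjusted p was 0.16. All genes were called at a rate of 0.201% in that comparison, or 0.375% with all 9 libraries, where again no ribosomal protein gene was called and 2 had an unadjusted p under 0.05.

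Large-subunit and small-subunit genes were both lower, with close medians. The median log2 fold change of the 116 large-subunit genes tested was -0.51 at 3 h and -0.67 at 6 h, that of the 83 small-subunit genes -0.61 and -0.67, and that of the 11 mixed genes -0.57 and -0.63. The medians of all 19416 genes were -0.02 and 0.00. On the linear scale the large-subunit median was 70.3% of the HT0h level at 3 h and 63.0% at 6 h, and the small-subunit median was 65.7% and 62.8%. Without HT3h replicate 1 the 3 h medians were -0.30 for the large and -0.26 for the small subunit. With all 9 libraries the medians were -0.74 and -0.85 for the large and -0.77 and -0.95 for the small subunit. The small-subunit median minus the large-subunit median ran from -0.02 to 0.07 in the HT0h libraries, from -0.03 to 0.04 in HT3h and from -0.13 to -0.03 in HT6h. The HT6h values all lay below those of the other groups, by a narrow margin, and the HT3h and HT0h values overlapped. Fragments on small-subunit genes per 100 on large-subunit genes were 65.9 to 69.9 in HT0h, 62.8 to 72.1 in HT3h and 62.7 to 71.3 in HT6h, so these ranges overlapped.

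By counts, 21 of 116 large-subunit genes tested (18.1%) were called lower at 3 h and 31 (26.7%) at 6 h. Of 83 small-subunit genes, 12 (14.5%) and 20 (24.1%) were called lower, and of 11 mixed genes 2 and 3. Over all genes tested, 8.29 and 10% were called lower. All calls on the higher side, 2 at 3 h and 3 at 6 h, were large-subunit genes, and no small-subunit gene was called higher at either time. With all 9 libraries the lower counts were 32 and 37 of 117 large-subunit and 20 and 31 of 83 small-subunit genes. All genes were called lower there at 9.57 and 10.1%. Single libraries moved these counts too, and some counts fell near the share of all genes called lower in the same fit. That share was 6.30 and 6.41% at 3 h without HT0h replicate 1 or HT0h replicate 3. At 6 h it was 8.27 and 8.30% without these libraries. The shares of all genes in the other fits are given above. The large-subunit count at 3 h was 9 without HT0h replicate 1 and 11 without HT0h replicate 3 or HT3h replicate 1, and at 6 h it was 12 without HT6h replicate 1 and 17 without HT6h replicate 3. The small-subunit count at 3 h was 5 without HT0h replicate 1, 7 without HT0h replicate 3 or HT3h replicate 1 and 28 without HT3h replicate 3. At 6 h it was 10 without HT0h replicate 1 or HT0h replicate 3 and 8 without HT6h replicate 1 or HT6h replicate 3. The 2 subunits were compared by these counts and medians only, and the difference between them was not tested.

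**Figure D2:**
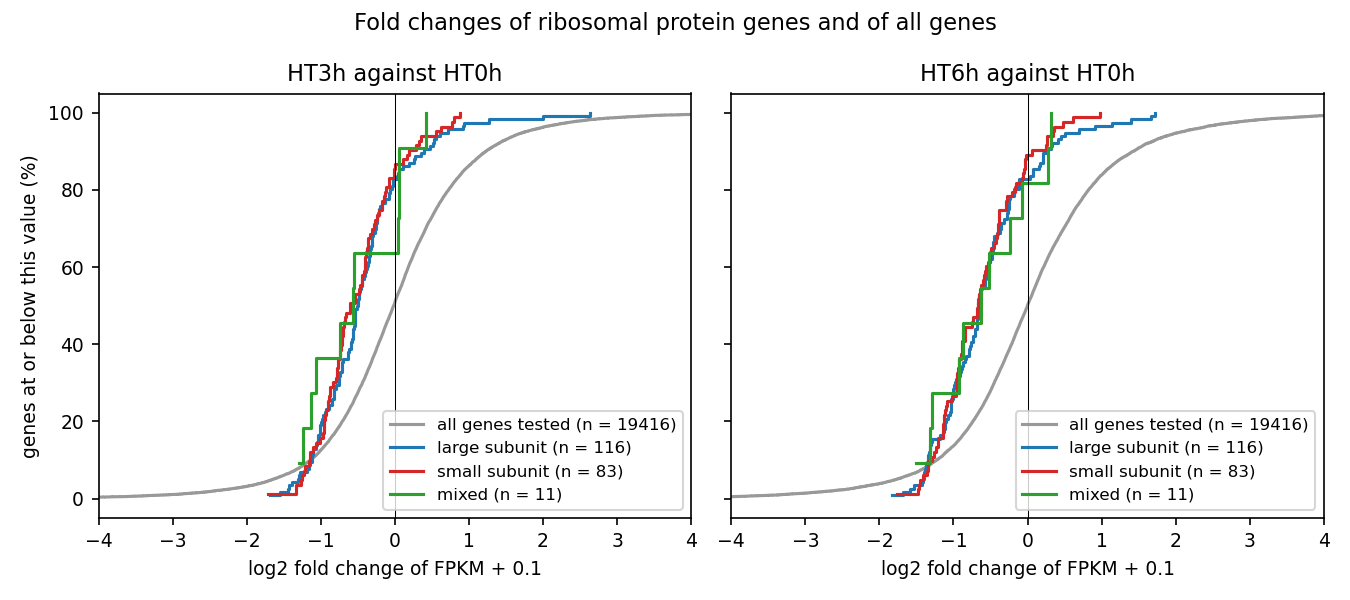
Cumulative share of genes (%) against the log2 fold change of FPKM + 0.1 in the 7 libraries, HT3h against HT0h on the left and HT6h against HT0h on the right, for all genes tested (grey), large-subunit (blue), small-subunit (red) and mixed genes (green). The large-subunit and small-subunit curves run close together and lie to the left of the curve of all genes, with medians of -0.67 for both subunits at 6 h beside 0.00 for all genes.

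Highly expressed genes as a whole also had medians below 0. The 1018 genes with a mean of 100 FPKM or more had medians of -0.16 at 3 h and -0.37 at 6 h, with 115 and 194 called lower (11.3 and 19.1%) and 134 and 136 higher. This cut, here and below, was on the mean over all 9 libraries. The 1018 include the ribosomal protein genes at that level, and values without them were not computed. The 123 ribosomal protein genes at that level had medians of -0.57 and -0.83, with 26 and 43 called lower (21.1 and 35%) and none higher by limma, at either time. Of the 87 tested below 100 FPKM, the medians were -0.42 and -0.51, and 9 and 11 were called lower and 2 and 3 higher. In the fit to all 9 libraries, 39 and 53 of the abundant and 16 and 19 of 88 less abundant ribosomal protein genes were called lower, beside 152 and 214 of the 1018.

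The steepest fall of an abundant gene at 6 h was that of an L41 gene on chromosome 1 (22319087 to 22319705 in genome v3.0, minus strand). This gene was 1 of the 3 most highly expressed large-subunit genes over the 7 libraries. It is 1 of 8 of the genes that carry no CsaV3 identifier and are named here by family and position. L41 is a very short basic peptide that lies between the subunits of the cytosolic ribosome. This L41 gene had 2118, 914 and 1219 FPKM in HT0h, 376, 95.4 and 459 in HT3h and 362, 206 and 388 in HT6h. Every heated library was below every HT0h library, although the HT0h libraries themselves spanned more than 2-fold. The log2 fold changes were -1.68 ± 0.39 (limma, adjusted p of 0.017) at 3 h and -1.83 ± 0.39 (limma, adjusted p of 0.011) at 6 h. The call at 3 h was lost without HT3h replicate 1 (log2 fold change -1.54), and that at 6 h without HT6h replicate 1 (-1.78) or HT6h replicate 3 (-1.88). The other L41 gene, on chromosome 4 (22362288 to 22363601), was also called lower at both times, with log2 fold changes of -1.12 and -1.14. Its calls were lost under 13 and 11 of the 22 alternatives, among them the fits without HT0h replicate 1 (-0.78 and -0.81).

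Further large-subunit genes with steep falls carried out different tasks in the subunit. The L13e gene CsaV3_5G005100 had 233, 201 and 213 FPKM in HT0h, 58.4, 30.7 and 91.8 in HT3h and 71.8, 33.2 and 70.9 in HT6h. These groups did not overlap, and the log2 fold changes were -1.56 ± 0.20 (limma, adjusted p of 0.0021) and -1.59 ± 0.20 (limma, adjusted p of 0.0015). CsaV3_5G008980 carries the L10 and acidic stalk domains of P0, the protein at the base of the stalk that recruits elongation factors. It had 796, 578 and 746 FPKM in HT0h, 188, 123 and 359 in HT3h and 264, 120 and 255 in HT6h. Its log2 fold change was -1.43 at both times (SE 0.32, limma adjusted p = 0.014 and 0.012). The call was lost without HT3h replicate 1 at 3 h (-0.96), and without HT6h replicate 1 (-1.46) or HT6h replicate 3 (-1.41) at 6 h.

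Proteins that line the functional centres of the large subunit were also among those called lower. L4/L1, which reaches into the exit tunnel, had 1 of its 3 genes called lower at each time, CsaV3_4G024340, with 445, 389 and 440 FPKM in HT0h, 153, 91.1 and 255 in HT3h and 197, 78.4 and 195 in HT6h. L44, which lies near the tRNA exit site, is encoded by CsaV3_3G031360, which had 891, 551 and 706 FPKM in HT0h, 258, 138 and 383 in HT3h and 241, 163 and 339 in HT6h. Its log2 fold changes were -1.16 ± 0.32 (limma, adjusted p of 0.029) and -1.30 ± 0.32 (limma, adjusted p of 0.017). Both calls were lost without HT0h replicate 1 (-0.99 and -1.13) or HT0h replicate 3 (-1.16 and -1.29), the first also without HT3h replicate 1 (-0.87) and the second without HT6h replicate 1 (-1.05). CsaV3_3G031360 was called lower in 15 of the 23 settings at 3 h and in 19 at 6 h, the reported one included. For CsaV3_4G024340 the estimates were -1.10 and -1.11. The calls were lost without HT3h replicate 1 (-0.73) at 3 h and without HT6h replicate 1 (-1.12) or HT6h replicate 3 (-1.11) at 6 h. Other settings ended calls too, and the gene was called lower in 21 and 17 of the 23 settings, the reported one included. Of the L6 family, whose cytosolic member sits beside the factor-binding site, 2 of 4 genes were called lower at 3 h and 3 at 6 h. Both L32 genes were called lower at both times, with log2 fold changes from -1.11 to -1.32, and the fits without HT3h replicate 1 at 3 h or without HT6h replicate 1 at 6 h ended the calls of both. In contrast, none of the 4 genes of L3, which surrounds the peptidyl transferase centre, was called by limma, and their log2 fold changes at 6 h ran from -0.66 to 0.22.

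The 3 most highly expressed large-subunit genes were the L41 gene on chromosome 1, CsaV3_3G012060 and CsaV3_1G002290, and they did not move together. The L30p/L7e gene CsaV3_3G012060 had 1002, 762 and 931 FPKM in HT0h, 703, 443 and 891 in HT3h and 747, 426 and 900 in HT6h. Its groups overlapped, and its log2 fold changes of -0.17 and -0.12 were not called (limma adjusted p = 0.70 and 0.78). The L34e gene CsaV3_1G002290 had 787, 589 and 614 FPKM in HT0h, 817, 580 and 863 in HT3h and 898, 514 and 851 in HT6h. Its log2 fold changes were 0.35 and 0.41 (limma adjusted p = 0.38 and 0.30).

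In the small subunit, CsaV3_1G003660 (S28e), CsaV3_2G004340 (S24e) and CsaV3_2G032240 (S17) were the most highly expressed genes. S28e is a cytosolic protein near the path by which mRNA leaves the subunit. CsaV3_1G003660 had 2279, 1328 and 1570 FPKM in HT0h, 706, 399 and 1070 in HT3h and 719, 436 and 858 in HT6h. Every heated library was below the HT0h libraries, but the spread was wide, and log2 fold changes of -0.95 and -1.10 (SE 0.41) had limma adjusted p of 0.12 and 0.074. CsaV3_2G004340 had log2 fold changes of -0.61 and -0.85, and CsaV3_2G032240 of -0.40 and -0.45, and neither was called.

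The largest falls among small-subunit genes at 1 FPKM or more were those of CsaV3_1G045700, an S13/S18 gene without a CsaV3 identifier, CsaV3_6G028440, CsaV3_4G026180 and CsaV3_7G007910. CsaV3_1G045700, the second S24e gene, on chromosome 1 (31545774 to 31548902), had 185, 134 and 147 FPKM in HT0h, 48.6, 31.6 and 77.1 in HT3h and 50.1, 30.8 and 61.6 in HT6h. Its log2 fold changes were -1.33 ± 0.24 (limma, adjusted p of 0.0064) and -1.47 ± 0.24 (limma, adjusted p of 0.0037), and the 3 h call was lost without HT3h replicate 1 (-1.0). S13/S18 is a protein of the head of the small subunit, and its gene on chromosome 6 (4253757 to 4255652) had 598, 423 and 506 FPKM in HT0h, 169, 101 and 234 in HT3h and 181, 109 and 188 in HT6h. The log2 fold changes were -1.34 ± 0.23 (limma, adjusted p of 0.0056) and -1.45 ± 0.23 (limma, adjusted p of 0.0035).

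CsaV3_7G007910 (S14p/S29e), in the head of the subunit, had 567, 397 and 462 FPKM in HT0h, 147, 77.2 and 257 in HT3h and 181, 99.1 and 204 in HT6h. The gene was called lower at both times (-1.27 and -1.29 ± 0.28, adjusted p by limma of 0.014 and 0.012). The call was lost without HT3h replicate 1 at 3 h (-0.87) and without HT6h replicate 1 (-1.20) or HT6h replicate 3 (-1.38) at 6 h. CsaV3_4G026180, described as S31e, had 987, 784 and 969 FPKM in HT0h, 541, 204 and 266 in HT3h and 392, 358 and 299 in HT6h. This name is used for more than 1 protein, so it was left in the shared type and no role is given. This gene was called lower by -1.26 and -1.41 (SE 0.35, limma adjusted p = 0.033 and 0.019). The 3 h call was lost under 10 of the 22 alternative settings and the 6 h call under 6.

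Genes for the decoding region and the mRNA path were also among those called lower. S12/S23, a protein of the decoding centre, had 1 gene called lower at 3 h and 2 at 6 h of its 4. The main S12/S23 gene CsaV3_6G021530 had 1233, 915 and 1030 FPKM in HT0h, 356, 200 and 622 in HT3h and 403, 197 and 516 in HT6h. Its log2 fold changes of -1.16 and -1.21 were called, but 12 and 10 of the 22 alternatives ended the calls, among them the fits without any 1 of the HT0h libraries (-1.04 to -1.26 and -1.09 to -1.31). S7p/S5e, at the mRNA exit, had 10 genes, 7 of them tested and 2 called lower at each time, among them CsaV3_7G022360 (-1.21 and -1.27). Its calls were lost without HT3h replicate 1 (-0.69) at 3 h and without HT6h replicate 1 (-1.24) or HT6h replicate 3 (-1.29) at 6 h. CsaV3_7G022360 was called lower in 18 and 19 of the 23 settings, the reported one included. S9/S16, whose tail reaches the peptidyl tRNA, had 2 of 5 genes called lower at each time. S3, at the mRNA entry, had none of its 3 genes called. The 2 of them at a mean of 1 FPKM or more had log2 fold changes at 6 h of -0.95 and -0.68.

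All types of ribosomal protein genes had medians below 0. Over all genes tested, 8.29% were called lower at 3 h and 10% at 6 h, or 9.57 and 10.1% with all 9 libraries. Eukaryotic-type genes had medians of -0.57 at 3 h and -0.67 at 6 h. Of 65 tested, 17 and 18 (26.2 and 27.7%) were called lower and 0 and 1 higher. Bacterial-type genes had medians of -0.47 and -0.72, with 1 and 7 of 26 called lower (3.85 and 26.9%) and none higher. Their share at 3 h was below that of all genes in the 7 libraries and above it in all 9 (15.4%). Shared-type genes had medians of -0.54 and -0.66, with 17 and 29 of 116 called lower (14.7 and 25%) and 2 and 2 higher. The 3 L11 methyltransferase genes were not called, and their medians were -0.75 and -0.68. With all 9 libraries, 20 and 26 of 66 eukaryotic-type, 4 and 8 of 26 bacterial-type and 31 and 38 of 116 shared-type genes were called lower, and the medians were -0.84 and -0.97, -0.62 and -0.76, and -0.73 and -0.90. Within the eukaryotic type, 15 of the 44 large-subunit genes tested were called lower at each time, compared with 2 and 3 of the 21 small-subunit genes, and the medians were -0.57 and -0.67 for the large and -0.40 and -0.49 for the small subunit. With all 9 libraries the counts were 16 and 18 of 45 large-subunit and 4 and 8 of 21 small-subunit genes, so that at 6 h the shares were 40% and 38.1%, and the gap seen in 7 libraries was not there. The difference between these shares was not tested.

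Bacterial-type genes called lower at 6 h belonged mostly to the abundant ones. Of the 11 with a mean of 100 FPKM or more, 1 was called lower at 3 h and 6 at 6 h, with medians of -0.64 and -1.03. The 15 others that were tested had medians of -0.35 and -0.45, and 1 was called lower, at 6 h. In all 9 libraries, 4 and 5 of the 11 and 0 and 3 of the 15 were called lower. CsaV3_6G050830, an L34 gene on chromosome 6 (29603381 to 29607755), had 331, 298 and 326 FPKM in HT0h, 212, 107 and 112 in HT3h and 128, 132 and 93.8 in HT6h. It was called lower at both times (-1.04 ± 0.29, adjusted p of 0.030 by limma at 3 h, and -1.54 ± 0.29, adjusted p by limma of 0.0062 at 6 h). The 6 h call was lost without HT6h replicate 3 (-1.32), and the 3 h call in 10 of the 22 alternatives. CsaV3_3G032940 (L17), a protein at the rim of the bacterial exit tunnel, had 581, 537 and 671 FPKM in HT0h, 390, 171 and 237 in HT3h and 270, 199 and 205 in HT6h. The gene was called lower at 6 h (-1.33 ± 0.28, adjusted p of 0.010 by limma) but not without HT6h replicate 3 (-1.14).

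CsaV3_3G042510 carries the L7/L12 domain of the mobile stalk that recruits translation factors in bacterial-type ribosomes, and it had 510, 469 and 584 FPKM in HT0h, 390, 141 and 254 in HT3h and 286, 237 and 204 in HT6h. This gene was called lower at 6 h (-1.10 ± 0.27, adjusted p of 0.018 by limma). S20, an early-binding protein of the bacterial small subunit, is encoded by CsaV3_4G033460, which had 659, 579 and 621 FPKM in HT0h, 433, 225 and 298 in HT3h and 331, 267 and 243 in HT6h, and was called lower at 6 h (-1.13 ± 0.26, adjusted p of 0.014 by limma). CsaV3_6G028440 encodes bacterial-type S6 and was less abundant, with 18.8, 27.8 and 26.9 FPKM in HT0h, 19.1, 11.9 and 8.73 in HT3h and 11, 4.38 and 6.67 in HT6h. It was called lower at 6 h (-1.49 ± 0.37, adjusted p of 0.019 by limma), a call lost without HT0h replicate 2 (-1.38), HT0h replicate 3 (-1.41) or HT6h replicate 3 (-1.13). The 6 h calls of CsaV3_3G042510 and CsaV3_4G033460 were lost without HT6h replicate 3 (-0.86 and -0.90), and the former also without HT0h replicate 3 (-1.02). At 6 h these genes were called lower in 16 and 18 of the 23 settings, the reported one included. In every one of these bacterial-type genes the 6 h libraries all lay below the HT0h libraries.

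Replicates of the heated groups differed among themselves, and the abundant bacterial-type genes differed in another way than the other types and the remaining bacterial-type genes. Eukaryotic-type genes were lower in HT3h replicate 1 than in HT3h replicate 3 in 64 of 65 cases, with a median difference of -0.62, and lower in HT6h replicate 1 than in HT6h replicate 3 in 53 of 65 (median -0.25). The 11 abundant bacterial-type genes went the other way, with 10 of 11 higher in HT3h replicate 1 than in HT3h replicate 3 (median 0.72) and 11 of 11 higher in HT6h replicate 1 than in HT6h replicate 3 (median 0.40). The 15 other bacterial-type genes tested did not, as 14 and 13 of them were lower in replicate 1 (medians -0.28 and -0.15). Of the 116 shared-type genes, 92 and 72 were lower in replicate 1 (medians -0.57 and -0.08). For the bacterial type as a whole, 15 and 13 of 26 were lower there (medians -0.19 and 0.02). Over all genes the medians of these differences were 0.00 and 0.01. Against the HT0h mean, the medians of the eukaryotic type were -0.87, -1.51 and -0.25 in HT3h and -0.83, -1.74 and -0.52 in HT6h. The medians of the 11 abundant bacterial-type genes were -0.23, -1.37 and -1.03 in HT3h and -0.77, -0.98 and -1.24 in HT6h. The lists were split by level after values had been seen, each library is 1 sample, and the differences between replicates were not tested.

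**Figure D3:**
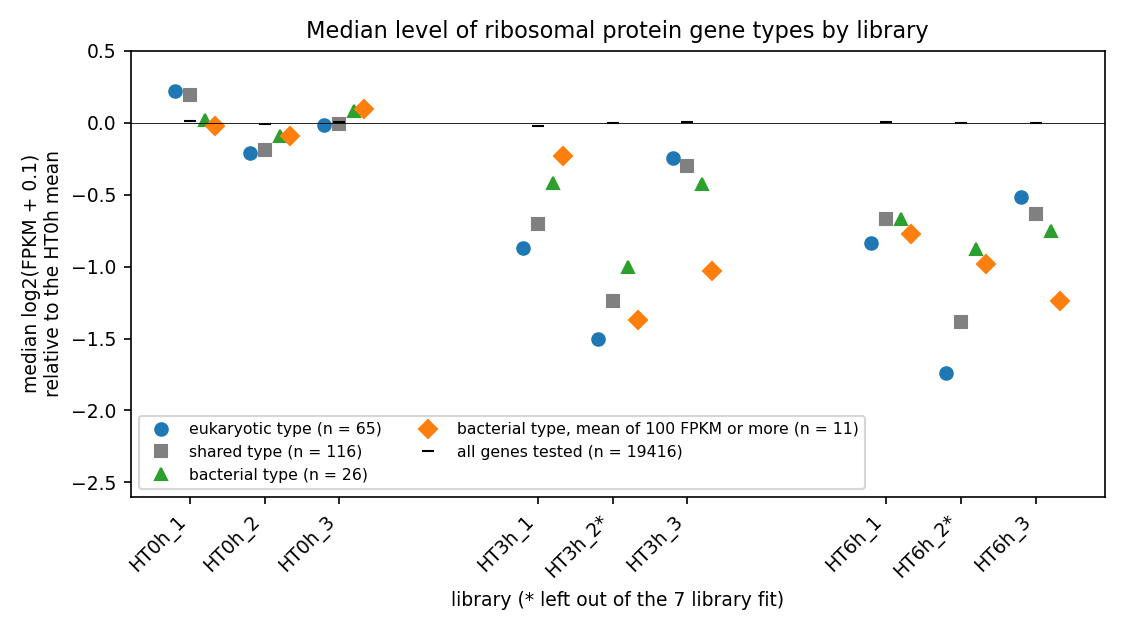
Median log2(FPKM + 0.1) relative to the HT0h mean in each library, for eukaryotic-type (circles), shared-type (squares) and bacterial-type genes (triangles), for the 11 bacterial-type genes with a mean of 100 FPKM or more (diamonds) and for all genes tested (dashes). The medians of the eukaryotic type are -0.87 in HT3h replicate 1 and -0.25 in HT3h replicate 3, whereas those of the diamonds are -0.23 and -1.03.

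Copies within a family often differed. The FPKM of all genes of a family were summed, and the sum was below the HT0h mean in 66 of 69 families at 3 h and in 67 at 6 h. The median log2 ratio of the family sums was -0.49 at 3 h and -0.72 at 6 h, and it was -1 or less in 5 families at 3 h and 14 at 6 h. S6e (log2 ratios of 0.72 and 0.90) and S26e (0.02 and 0.07) were above the HT0h level at both times, and S16 at 3 h (0.24). At least 1 gene was called lower in 28 families at 3 h and in 38 at 6 h. Among the 58 families with 2 or more genes at a mean of 1 FPKM or more, 23 held genes with estimates on both sides of 0 at 6 h, and 25 spanned 1 or more on the log2 scale between their lowest and highest gene, with a median span of 0.89. How fragments shared by near-identical copies were assigned is not given in the sources used here, so values of single copies carry that uncertainty.

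**Figure D4:**
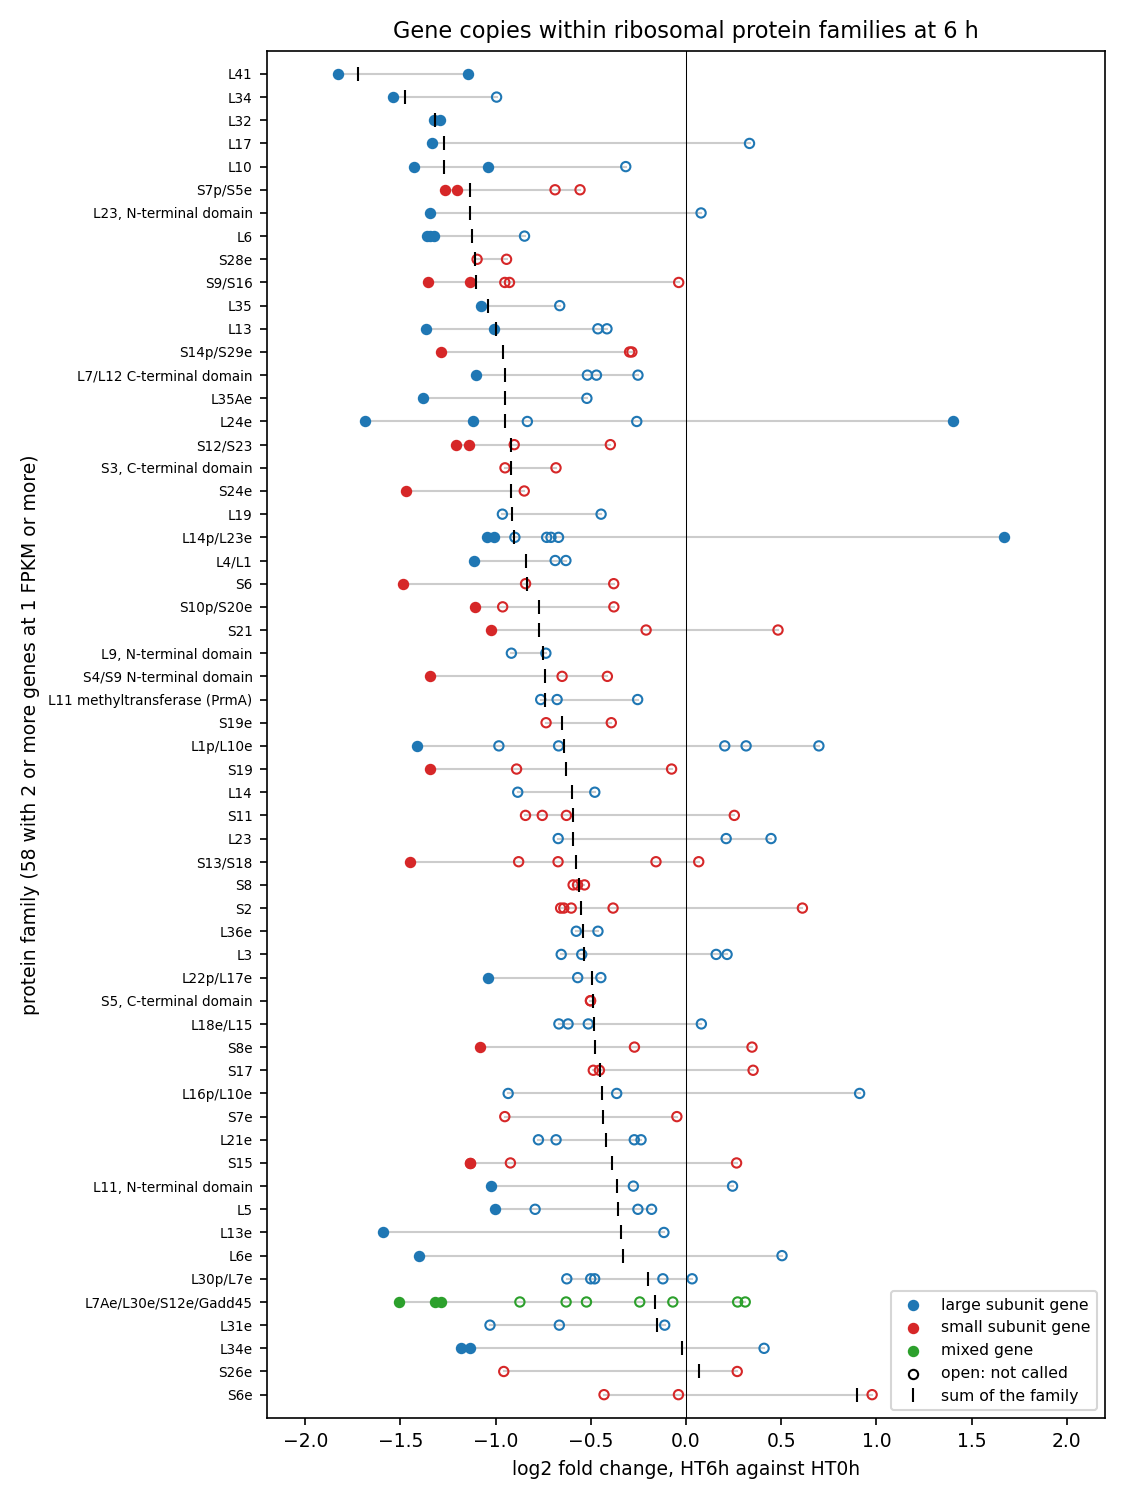
Log2 fold changes at 6 h of single genes within the 58 families that have 2 or more genes at a mean of 1 FPKM or more, with the family sum as a vertical tick and families ordered by it. Filled points were called, open points were not, and colours mark large-subunit (blue), small-subunit (red) and mixed genes (green). L41 has the lowest sum and S6e the highest (0.90), and L24e spans from -1.69 to 1.4.

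Among genes at a mean of 1 FPKM or more, the L24e family showed the widest span at 6 h. L24e helps to join the subunits, and in Arabidopsis a copy is known for its role in reinitiation of translation. CsaV3_2G032810 on chromosome 2 (21682623 to 21685390) had 27, 18.9 and 25.8 FPKM in HT0h, 7.57, 7.34 and 10.6 in HT3h and 7.58, 5.45 and 6.96 in HT6h. The gene was called lower at 3 h (-1.39 ± 0.22, adjusted p of 0.0038 by limma) and at 6 h (-1.69 ± 0.22, adjusted p of 0.0016 by limma). CsaV3_3G036890 on chromosome 3 (30521680 to 30522423) had 2.77, 1.96 and 2.49 FPKM in HT0h, 2.82, 6.78 and 2.95 in HT3h and 7.30, 6.05 and 5.69 in HT6h. Every heated library was above every HT0h library, from 17 to 24 fragments in HT0h and 58 to 70 in HT6h and HT3h replicate 2. It was called higher at 6 h (1.4 ± 0.25, adjusted p of 0.0050 by limma) and not at 3 h (0.27, limma adjusted p = 0.44). The 2 abundant copies, CsaV3_3G036650 and CsaV3_6G040310, with more than 350 FPKM in each HT0h library, had log2 fold changes at 6 h of -0.83 and -1.12, and the second was called lower at both times, though 14 and 9 of the 22 alternatives ended its calls. The last, CsaV3_3G045120, had -0.48 and -0.26 and was not called.

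L16p/L10e, which in yeast is among the last proteins to join the large subunit, had 3 genes with different courses. CsaV3_5G039260 had 1111, 918 and 985 FPKM in HT0h, 399, 267 and 583 in HT3h and 458, 223 and 600 in HT6h. This gene was called lower at 3 h (-1.05 ± 0.30, adjusted p of 0.035 by limma), a call lost under 13 of the 22 alternatives, and at 6 h it passed the adjusted p but not the 2-fold limit (-0.93, limma adjusted p = 0.046). CsaV3_2G019510 had 238 to 328 FPKM in HT0h and estimates of -0.32 and -0.36 that were not called. CsaV3_4G007890 had 210, 150 and 168 FPKM in HT0h, 239, 258 and 345 in HT3h and 330, 196 and 327 in HT6h. Its estimates were 0.72 ± 0.23 (limma, adjusted p of 0.051) and 0.91 ± 0.23 (limma, adjusted p of 0.020), short of the 2-fold limit at 6 h. In HT0h the first of these genes had more than 5 times the level of the last in each library, and in HT6h replicates 1 and 3 less than 2 times.

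In the L13e, L6e and L34e families 1 or more copies were called lower beside an abundant copy that was not. CsaV3_4G004440, the other L13e gene beside CsaV3_5G005100, had 888, 592 and 744 FPKM in HT0h, 546, 411 and 1135 in HT3h and 569, 260 and 800 in HT6h, and estimates of 0.11 and -0.12 (limma adjusted p = 0.86 and 0.84). CsaV3_3G032360 (L6e) had 381, 318 and 398 FPKM in HT0h, 117, 52.7 and 184 in HT3h and 140, 56.6 and 135 in HT6h and was called lower at both times (-1.31 and -1.40 ± 0.23, adjusted p by limma of 0.0059 and 0.0038). CsaV3_7G031330, the other L6e gene, had 283, 221 and 239 FPKM in HT0h, 264, 222 and 468 in HT3h and 349, 164 and 350 in HT6h, and estimates of 0.51 and 0.50 (limma adjusted p = 0.19 at both). The 3 h call of CsaV3_3G032360 was lost without HT3h replicate 1 (-0.98). The order of the L6e copies was reversed by these values, with the first gene higher in each HT0h library and the second higher in each heated library. Among L34e genes, CsaV3_1G002460 was called lower at both times (-1.14 and -1.18 ± 0.19, adjusted p by limma of 0.0053 and 0.0039) and CsaV3_2G019790 at 6 h (-1.13 ± 0.24, adjusted p of 0.0098 by limma), while CsaV3_1G002290 was not called. The call of CsaV3_1G002460 at 3 h was lost without HT3h replicate 1 (-0.88), and that of CsaV3_2G019790 without HT6h replicate 1 (-1.0).

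**Figure D5:**
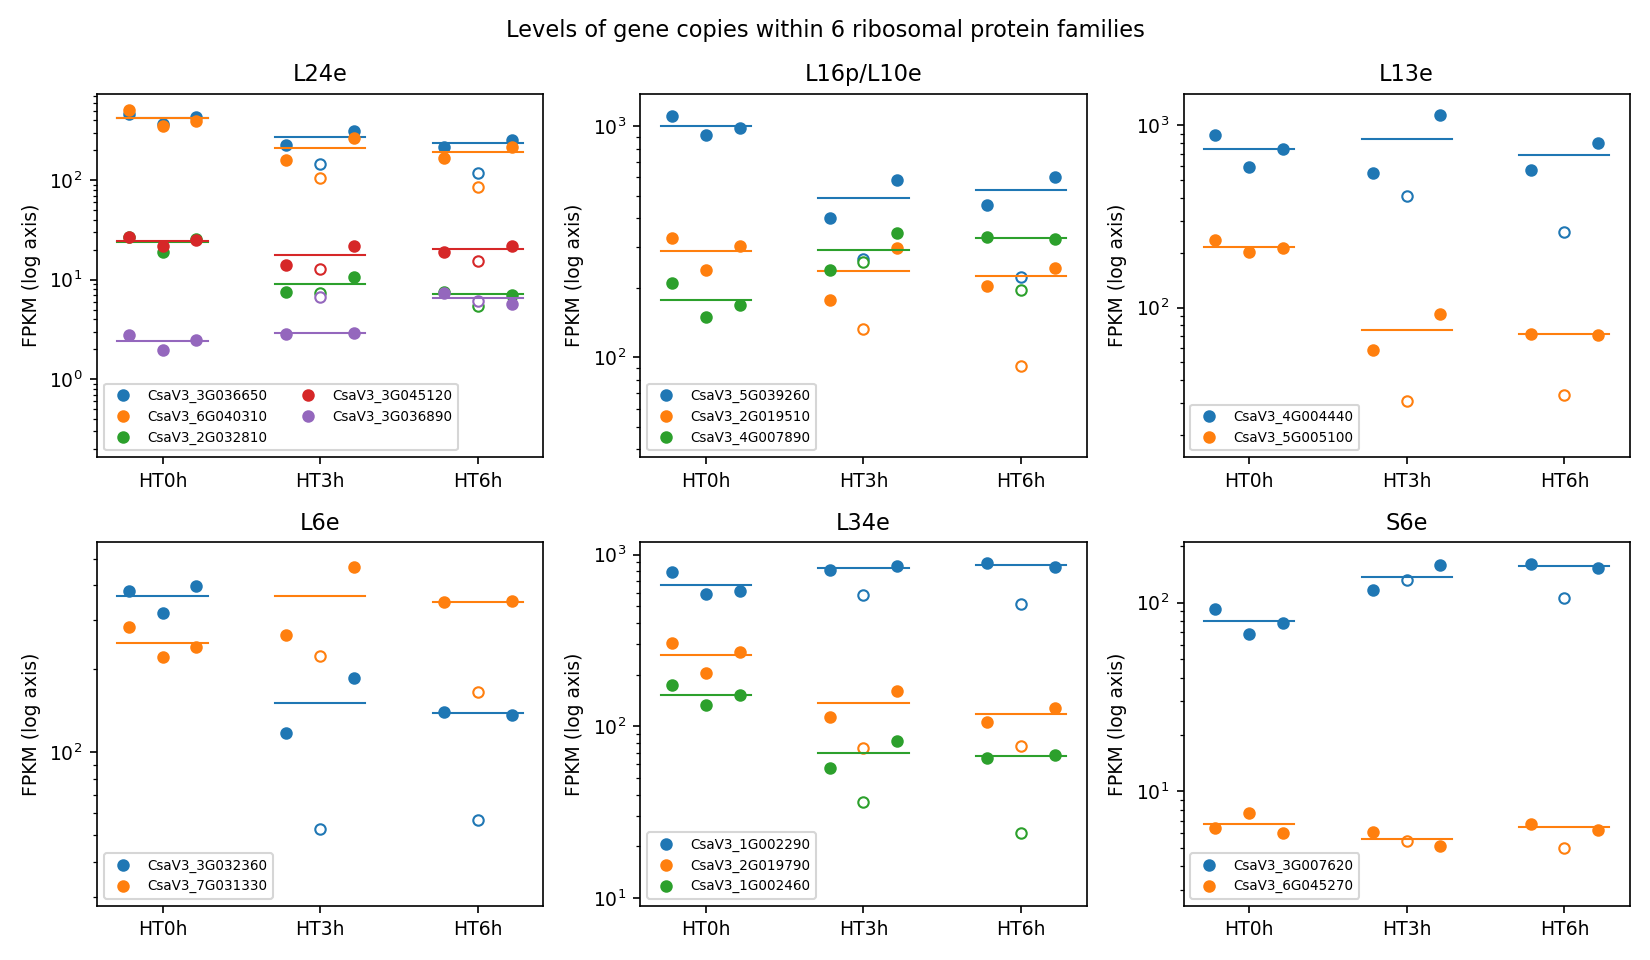
FPKM (log axes) of gene copies in the L24e, L16p/L10e, L13e, L6e, L34e and S6e families in each library, with lines at the means of the libraries used in the tests and open points for the 2 libraries left out of them. In L6e the copy that is higher in all HT0h libraries (318 to 398 FPKM) is the lower one in all heated libraries (52.7 to 184 FPKM). The S6e panel shows only CsaV3_3G007620 and CsaV3_6G045270.

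S6e, the small-subunit protein that is phosphorylated downstream of the TOR kinase, ran against the other families. Its main gene CsaV3_3G007620 on chromosome 3 (6722265 to 6725148) had 92.7, 68.6 and 77.9 FPKM in HT0h, 117, 131 and 157 in HT3h and 160, 106 and 152 in HT6h. All 6 heated libraries were above all HT0h libraries. The log2 fold changes were 0.77 ± 0.19 (limma, adjusted p of 0.021) and 0.98 ± 0.19 (limma, adjusted p of 0.0074). Both fell short of 2-fold, and the gene was called higher at 6 h in 6 of the 22 alternatives, which include 4 other scalings (1.14 to 1.18). CsaV3_6G045270, a more weakly expressed S6e gene, had 5.01 to 7.69 FPKM over the libraries and was not called. The family had 3 genes at a mean of 1 FPKM or more. The one not described here had a log2 fold change of -0.43 at 6 h and was not called. In S26e, CsaV3_5G010880 had estimates of -0.71 and -0.96 (limma adjusted p = 0.020 and 0.0055), short of 2-fold, while the more abundant CsaV3_6G002260 had 0.17 and 0.27 (limma adjusted p = 0.72 and 0.54).

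The genes called higher were weakly expressed. CsaV3_6G040040, an L14p/L23e gene on chromosome 6 (23034205 to 23035055), had 1.63, 1.08 and 0.556 FPKM in HT0h, 7.30, 2.43 and 6.21 in HT3h and 3.03, 4.66 and 3.84 in HT6h, which rested on 3 to 9 fragments in HT0h and 16 to 43 in the heated libraries. It was called higher at 3 h (2.63 ± 0.42, adjusted p of 0.0039 by limma) and at 6 h (1.67 ± 0.42, adjusted p of 0.019 by limma), and the 6 h call was lost without HT6h replicate 1 (1.84) or HT6h replicate 3 (1.5). A gene with an L10 domain on chromosome 1 (14404224 to 14405461) rested on 1 to 4 fragments in HT0h and 12 to 62 in the heated libraries. Its estimates were 1.99 (limma adjusted p = 0.025) at 3 h and 1.72 (limma adjusted p = 0.036) at 6 h, and its 3 h and 6 h calls were lost in 3 and 11 of 21 alternatives. The fifth gene with all heated libraries above HT0h was CsaV3_2G008470 (L23), with 13.2 to 14.1 FPKM in HT0h and 16.0 to 20.4 in the heated libraries (0.56 and 0.45, limma adjusted p = 0.013 and 0.025). L24e, L14p/L23e and L10 each had abundant copies that were called lower at 6 h.

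Among the 10 L7Ae/L30e/S12e/Gadd45 genes, 2 were called lower at 3 h and 3 at 6 h. CsaV3_5G023800 had 393, 274 and 327 FPKM in HT0h, 96.5, 60.6 and 185 in HT3h and 106, 62.0 and 125 in HT6h. Its log2 fold changes were -1.29 ± 0.30 (limma, adjusted p of 0.016) and -1.51 ± 0.30 (limma, adjusted p of 0.0079). The 3 h call was lost without HT0h replicate 1 (-1.16) or HT3h replicate 1 (-0.83), and the 6 h call without HT6h replicate 1 (-1.38). The most abundant gene of the family, CsaV3_7G031930, had 1458, 1155 and 1278 FPKM in HT0h, 1620, 1081 and 1831 in HT3h and 1603, 1132 and 1600 in HT6h. Its groups overlapped and its estimates of 0.42 and 0.31 were not called (limma adjusted p = 0.47 and 0.57).

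Other genes of the protein-making machinery were compared as lists. Over all genes tested, 8.29% were called lower and 10% higher at 3 h, and 10% lower and 12.2% higher at 6 h. With all 9 libraries these shares were 9.57 and 10.9% at 3 h and 10.1 and 12.3% at 6 h. Ribosomal protein families whose descriptions are worded otherwise, and so lay outside the definition, numbered 75 tested genes, with 15 called lower and 2 higher at 3 h, 18 and 2 at 6 h, and medians of -0.49 and -0.69. Of these, 19 and 26 were called lower with all 9 libraries. Ribosome assembly factors, which build the subunits in the nucleolus, were listed together with a ribosome recycling factor, CsaV3_6G037240 (0.39 and 0.06), which is no assembly factor. This list had 2 called lower and 3 higher at 3 h and 1 and 3 at 6 h of 67 tested, and medians of 0.05 and 0.06. These medians turned to -0.07 and -0.17 with all 9 libraries, with 3 called lower and 2 higher at 3 h and 3 lower and 1 higher at 6 h. RNA polymerases I and III, which make ribosomal and transfer RNA, had 8 genes tested, 3 called higher at 3 h and 1 at 6 h, none lower, and medians of 0.64 and 0.60, whereas 2 and 0 were called higher by limma with all 9 libraries (medians 0.73 and 0.60). Initiation factors had 3 lower and 3 higher at 3 h and 5 and 3 at 6 h of 56, with medians of -0.15 and -0.19, and with all 9 libraries 3 lower and 5 higher at 3 h and 3 and 4 at 6 h. Elongation and release factors had 4 lower and 4 higher at 3 h and 3 and 4 at 6 h of 39, with medians of -0.44 and -0.30, and with all 9 libraries 5 lower and 3 higher at 3 h and 3 and 3 at 6 h. Aminoacyl-tRNA synthetases had 2 and 4 lower of 44 and none higher, with medians of -0.14 at both times, and 4 and 3 lower with all 9 libraries. Acidic stalk proteins outside the definition had 3 of 9 called lower at each time, and 1 called higher at 3 h, with the same counts in all 9 libraries. Neither of the 2 ubiquitin fusions was called. As shares in the 7 libraries, 20 and 24% of the ribosomal protein families worded otherwise were called lower at 3 h and 6 h. These shares were 2.99 and 1.49% for the assembly list and 5.36 and 8.93% for initiation factors. Elongation and release factors had 10.3 and 7.69%, and synthetases 4.55 and 9.09%.

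Scaling affected the size of the change. The deposited FPKM were not scaled by the fragments counted on genes, since the denominators recovered from them were 91.2 to 115% of those totals. Scaled by these totals, the median of all genes at 6 h moved from 0.00 to 0.19, and 28 ribosomal protein genes were called lower and 5 higher at 6 h, in place of 54 and 3. Relative to the median of all genes, the large-subunit and small-subunit medians at 6 h were both -0.66 under that scaling, beside -0.67 for each under the deposited one. After quantile normalization they were -0.38 and -0.41, and 18 genes were called lower at 3 h (8.57%, beside 8.09% of all genes) and 25 at 6 h (11.9%, beside 10.5%), so that little excess over all genes was left. In all 22 alternative settings and the one reported, 4 genes were called lower at 3 h and 8 at 6 h. The 4 at both times were CsaV3_2G032810 (L24e), CsaV3_5G005100 (L13e), CsaV3_6G046250 (L6) and the S13/S18 gene on chromosome 6. The L6 gene, with a mean of 326 fragments, overlaps an opposite-strand model with 269, so the reads of the 2 cannot be told apart where strand was not used. In all settings 1 gene was called higher at each time, CsaV3_6G040040 at 3 h and CsaV3_3G036890 at 6 h.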

How the data were processed

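Total RNA from leaves was sequenced at Novogene (Beijing, China), and the authors deposited a table of FPKM for each library. The submitters' processing notes name CASAVA 1.8, HISAT2 2.0.5, StringTie 1.3.3b and featureCounts 1.5.0-p3 without their roles. How shared fragments were assigned, and whether strand was used, is not given in the sources used here. Gene identifiers are those of the cucumber genome v3.0, and 8 of the genes have no such identifier.

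FPKM times gene length gave whole fragments for 100% of values (tolerance 0.02 fragments), and depth and shares come from these. limma 3.58.1 (R 4.3.3) was fitted to log2(FPKM + 0.1), with an empirical Bayes trend, on genes with a mean of 0.1 FPKM or more. Groups were taken from sample titles. P-values were adjusted by Benjamini-Hochberg over all genes tested, and genes were called at adjusted p values up to 0.05 with changes of at least 2-fold. The residual degrees of freedom were 4 (7 libraries) or 6 (9). limma was also run on simulated counts drawn independently for each gene. Genes that shift together in a library were not simulated, so that run cannot give error rates for them. The low number of libraries limits the precision.

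Genes to be named were, for each subunit and time, up to 4 called with the largest rises and falls at 1 FPKM or more, the 3 most expressed, and the leading S6e, S27a-type, L24e and L16p/L10e genes, with any gene called in opposite directions at the 2 times (none was). Among the large-subunit genes with the largest falls at 3 h, CsaV3_UNG050350 is not described above. It was called lower in 17 of the 23 settings at 3 h and in 7 at 6 h. With 1 library left out, its log2 fold changes ran from -2.04 to -0.83 and from -1.14 to -0.91. Other genes named, among them every gene named for its copies, were chosen after their values were seen. Types were assigned from general knowledge of the families. The genes and lists were chosen with earlier results of these data known. Among the genes, 33 overlap another gene model, 28 of them on the opposite strand. None matched the RefSeq table available, so no sequences are shown. Alternatives tried were all 9 libraries, array weights, a replicate block, other pseudocounts, filters and scalings, fits of 2 groups, no trend, voom on fragments, and each library left out in turn.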

Additional observations from a re-analysis of the deposited data

How the results depend on the processing

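None of the 122 results for named genes changed direction under the alternatives where a gene was called in either setting. The other ribosomal protein genes were not checked for this. Of 54 and 35 genes called lower at 6 h and 3 h, 50 and 35 were also called with all 9 libraries. At 3 h, the number called lower was 55 with all 9 libraries, 67 with array weights on them, 70 with a replicate block on them, 18 without a filter, 18 after quantile normalization and 23 when scaled by library total or by the total without ribosomal protein genes. At 6 h it was 84 with a replicate block on the 9 libraries, 28 under either total, 25 after quantile normalization and 30 with voom. All genes were called lower at 8.09 and 10.5% after quantile normalization (ribosomal protein genes 8.57 and 11.9%), and at 6 h at 7.17% by library total (13.3%) and 7.12% with voom (14.3%). Genes called higher numbered 1 at 3 h with a pseudocount of 1, without a filter and at a mean of 1 FPKM or more. At 6 h they numbered 1 with a replicate block on 7 libraries, 1 without a filter, and 5 under either total or voom. Quantile normalization forces the libraries to one distribution; the cause of the other changes was not tested.

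The large-subunit median at 3 h was -0.74 with all 9 libraries, with or without a replicate block. At 6 h it was -0.85 in both, -0.47 scaled by library total or with voom, and -0.42 after quantile normalization. The small-subunit median at 6 h was -0.95 with all 9 libraries, with or without the block, and -0.45 after quantile normalization. The share of ribosomal protein genes in the sum of FPKM was 8.72, 6.90 and 6.74% in HT0h, HT3h and HT6h, and the fragment share over all HT6h libraries was 3.92%.

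With 1 library left out, the count called lower ran from 15 to 63 at 3 h and 21 to 56 at 6 h, and called higher from 2 to 5 and 1 to 4. The large-subunit medians ran from -0.69 to -0.30 and -0.70 to -0.57, and the small-subunit medians from -0.72 to -0.26 and -0.78 to -0.57. The shares ran from 5.83 to 6.56% in HT0h, 3.74 to 5.90% in HT3h and 4.22 to 4.97% in HT6h. A group left with 1 library was assumed to vary like the others.

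The replicate numbers were not treated as pairs, since nothing in the labels ties them to a shared batch and the correlations of deviations across genes were not all above 0.1. They ran from -0.23 to 0.03 between HT0h and the heated groups and were 0.04, 0.31 and 0.48 between HT3h and HT6h for numbers 1, 2 and 3. In 7 libraries with the replicate block 25 and 50 genes were called lower at 3 h and 6 h, of which 6 and 18 were small-subunit genes. Over 122 results for named genes and 22 alternatives, 323 comparisons lost a call, 69 gained one and 2288 kept their side of the threshold. Where libraries are named above for a lost call, other settings may have ended it as well. The 2 libraries per heated group and the low fragment numbers of weakly expressed copies limit the precision.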
